A study of Mus musculus with 6 samples.

Results

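The immediate early genes followed here are Fos, Jun, Junb, Egr1, Atf3, Ier2, Ier3, Dusp1, Myc and Nr4a1. They were measured by every probe set, a group of array probes for 1 transcript, that the platform annotation assigns to exactly 1 of these 10 symbols. All 10 were found, of 12393 genes so named. They have 11 of the 22626 probe sets shared by both array designs, 2 for Jun and 1 for each other gene, and the larger design held no further one. The samples are livers of C57BL/6J mice, which become obese on fat-rich food, randomly assigned to a control diet (labelled C) or a high-fat diet (labelled HF, and HFC in the design text). There is 1 array for each diet at weeks 2, 4 and 10, so 6 arrays in all and no replicate within a diet and week. The labels name no genotype, agent or surgery beyond diet and week. Whether the RNA on an array is that of 1 animal or of several is not stated, and neither are sex, age and hour of collection. The arrays of weeks 2 and 10 share a smaller design and those of week 4 a larger one, whose table was scaled separately. Where all 6 arrays are set side by side, week 4 therefore also differs by design and scaling, and differences were taken only within a design.

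Immediate early genes are transcribed within minutes of a growth factor, hormone or stress signal, without new protein synthesis, and their short-lived messages decay soon after. Most encode transcription factors. Fos and Jun family proteins pair as AP-1, Egr1 is a zinc finger factor, Nr4a1 is an orphan nuclear receptor and Myc drives growth programmes. Others close the loop, such as Dusp1, a phosphatase that switches off the MAP kinases. In liver they are known for their surge after partial hepatectomy, and they also respond to feeding, glucocorticoids and handling of the tissue.

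The promoters below are shown for the genes whose values are taken up most, Fos and Jun for their levels at weeks 2 and 10, Dusp1 for its diet difference and Nr4a1 for its change of sign. They come from RefSeq (GRCm38.p6), which gave an entry for 7 of the 10 genes. Entries for Egr1, Ier2 and Myc were missing. Each runs 5′ to 3′ on the gene's strand over 300 bases around an annotated transcript start. Capitals mark TGACG, the core of the cyclic AMP response element, on either strand (CGTCA where it lies on the opposite strand), and TATAAA.

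Fos, chr12:85473640-85473939, plus strand: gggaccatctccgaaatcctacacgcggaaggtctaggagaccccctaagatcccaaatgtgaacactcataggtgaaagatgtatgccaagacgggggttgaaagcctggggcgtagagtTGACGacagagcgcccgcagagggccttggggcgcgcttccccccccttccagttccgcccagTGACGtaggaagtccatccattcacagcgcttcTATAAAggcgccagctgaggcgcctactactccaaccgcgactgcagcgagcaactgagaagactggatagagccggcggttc
Jun, chr4:95052173-95052472, minus strand: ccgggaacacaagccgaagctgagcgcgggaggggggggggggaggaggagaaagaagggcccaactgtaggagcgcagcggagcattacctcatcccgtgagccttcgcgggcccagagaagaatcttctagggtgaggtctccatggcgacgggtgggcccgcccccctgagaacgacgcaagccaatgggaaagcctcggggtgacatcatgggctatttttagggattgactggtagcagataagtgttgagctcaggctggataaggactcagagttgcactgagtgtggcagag
Dusp1, chr17:26508423-26508722, minus strand: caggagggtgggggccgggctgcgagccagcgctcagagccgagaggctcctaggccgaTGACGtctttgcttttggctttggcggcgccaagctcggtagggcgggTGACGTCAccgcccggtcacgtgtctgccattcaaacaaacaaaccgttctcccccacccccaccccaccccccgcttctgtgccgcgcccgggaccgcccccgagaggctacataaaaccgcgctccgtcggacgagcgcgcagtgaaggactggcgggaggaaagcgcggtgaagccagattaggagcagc
Nr4a1, chr15:101266596-101266895, plus strand: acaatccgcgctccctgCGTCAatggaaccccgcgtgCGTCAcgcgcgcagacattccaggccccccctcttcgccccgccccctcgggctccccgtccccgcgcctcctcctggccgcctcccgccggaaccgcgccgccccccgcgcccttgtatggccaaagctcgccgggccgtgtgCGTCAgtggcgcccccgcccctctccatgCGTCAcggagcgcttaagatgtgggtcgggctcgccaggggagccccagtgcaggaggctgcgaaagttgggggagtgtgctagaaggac

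TGACG was present in 5 of the 7 promoters, those of Fos, Junb, Nr4a1, Dusp1 and Atf3, and 20.9% of 32544 promoters of this length hold it on either strand. The Nr4a1 window had 4 copies on the opposite strand and the Fos window 2 on the gene's strand, while Jun and Ier3 had none. The palindrome TGACGTCA, which contains TGACG, was found in the Dusp1 promoter alone, against 1.80% of all. TATAAA was found in 2 of the 7, Fos and Junb, against 13.6% of all. No window held a CArG box, the serum response factor's motif (1.64% of all), or TGANTCA, the short form of the AP-1 motif (7.79%). Longer forms, such as the TGACATCA in the Jun window, were not searched for. These are matches of letters in a short window and say nothing of binding.

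All signals below are deposited intensities scaled to a common median per array. The floor was a signal of 155.3, the 40th percentile of all values. Lower values were set to it in every difference, which is then a bound. All 11 probe sets were above the floor on at least 3 of 6 arrays and so passed the filter, as did 14533 of the 22626. Hepatocyte markers were present as the tissue label says, with all 12 (Alb, Ttr, Apoa1 and others) above the floor on each array. The 3'/5' ratio of pyruvate carboxylase, a sign of RNA integrity, was lowest at 2.39 (high-fat diet, week 10) and highest at 9.64 (high-fat diet, week 2). A spiked-in control, bioD, read 29161 on the week 10 control array and 4239 to 9622 elsewhere. The part of either in the differences below was not tested.

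**Figure D1:**
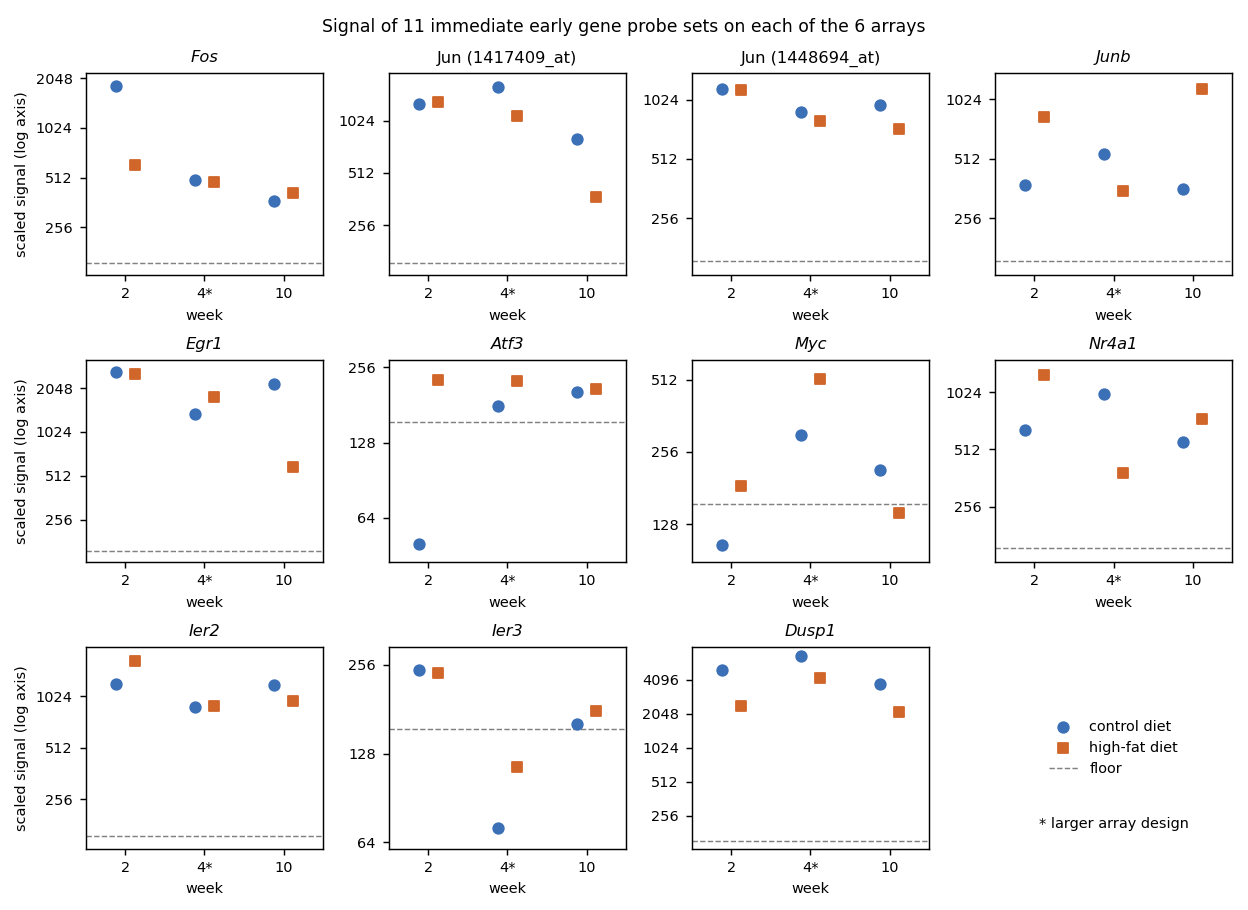
Scaled signal of each probe set (log axis, own range per panel) on the control array (circles) and the high-fat array (squares) of weeks 2, 4 and 10; the dashed line is the floor of 155.3 and points under it are drawn as measured. Dusp1 was lower on the high-fat array at each of the 3 weeks, and Fos was highest on the control array of week 2 at 1831.

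The first question was how the diets differed. Over the 3 weeks, 0 of 11 probe sets passed limma at an adjusted p under 0.05, where 0.0138% of all probe sets passed as higher and 0% as lower. At an unadjusted p under 0.05 there was 1 lower (2.33% of all), Dusp1, and 0 higher (1.7%). Higher at all 3 weeks was 1 of 11, Atf3 (8.24% of all), and lower at all 3 were 2, Dusp1 and the second probe set of Jun (11.7%). At week 2, 1 was at least 2-fold higher on the high-fat array (1.47% of all probe sets) and 2 at least 2-fold lower (2.17%). At week 4, 0 were higher (0.908%) and 1 lower (1.05%), and at week 10 1 was higher (4.05%) and 2 lower (4.4%). At 1.5-fold in either direction, 4 of 11 differed at each week, beside 17.6%, 11.7% and 27.6% of all at weeks 2, 4 and 10. The median absolute log2 difference was 0.45, 0.39 and 0.41 at weeks 2, 4 and 10, beside 0.27, 0.19 and 0.35 over all probe sets. The signed medians were 0.03, -0.03 and -0.31, beside -0.04, 0.00 and 0.01. The shares and medians over all probe sets are lowered by the floor, since 2 arrays at the floor give a difference of 0. On the control and high-fat arrays of week 4, 51.7% and 50.4% of probe sets were above it, and 62.0% to 65.8% elsewhere. Among the members only Atf3, Myc and Ier3 fell below it on any array. Members and all probe sets are thus not fully alike here. Single weeks have no test. The error in the limma tests joins a probe set's own variation, here of the difference from week to week, with a value estimated over all probe sets fitted. The second probe set of Jun, with a standard deviation of 0.20 over the weeks, thus had a standard error of 0.22. Egr1, with a standard deviation of 1.21, had a standard error of 0.38.

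**Figure D2:**
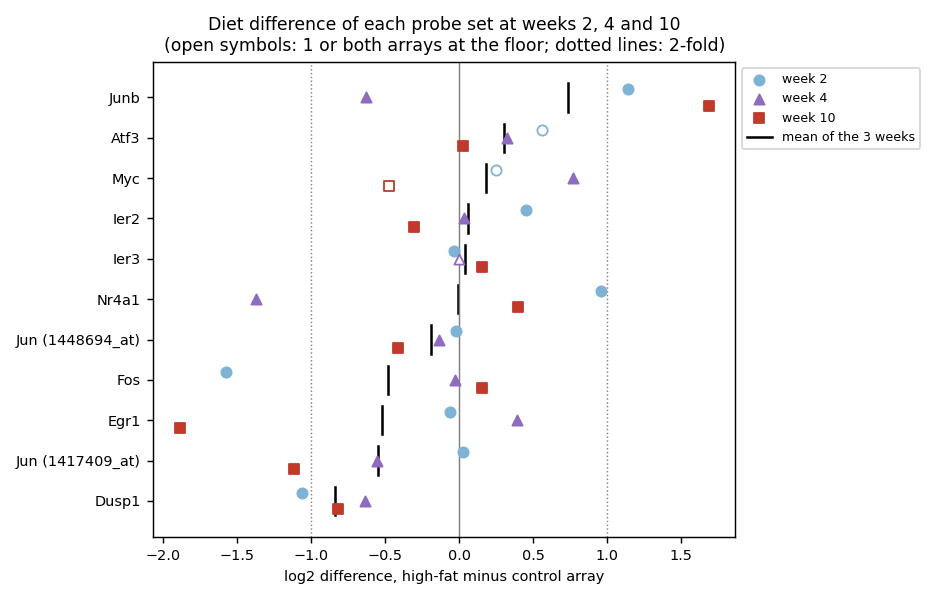
Log2 difference between the high-fat and the control array (x axis) for each probe set (rows) at week 2 (circles), week 4 (triangles) and week 10 (squares), with the mean of the 3 weeks as a bar. Only Dusp1 had all 3 weeks on the same side of 0 at 1.5-fold or more, from -1.06 to -0.64, while Junb and Nr4a1 changed sign between weeks.

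Fos, the AP-1 partner that cannot pair with itself, had signals of 1831, 495 and 369 on the control arrays of weeks 2, 4 and 10, and of 614, 485 and 411 on their high-fat partners. The control array of week 2 was the high one, and the diets lay close together at the other weeks. The log2 difference was -1.57 at week 2 (2.98-fold lower), -0.03 at week 4 and 0.15 at week 10. Their mean was -0.48 (standard error 0.33, limma adjusted p = 0.993, lower at 2 of 3 weeks), and 0.06 without week 2.

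Jun, the other core of AP-1, was read by a pair of probe sets. The first had 1286, 1611 and 810 on the control arrays in order of week, and 1309, 1098 and 374 on the high-fat arrays. The second had 1161, 881 and 962 on control, and 1146, 801 and 723 on high-fat arrays. Both were nearly level between the diets at week 2, and at weeks 4 and 10 both were lower with the high-fat diet, by unequal amounts. The log2 difference of week 10 was -1.11 on the first and -0.41 on the second. Mean differences were -0.55 (standard error 0.26) and -0.19 (standard error 0.22), both with a limma adjusted p of 0.993.

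Junb, an AP-1 member that often opposes Jun, had 377, 541 and 359 on the control arrays in order of week, and 831, 349 and 1154 on the high-fat arrays. It was at least 2-fold higher with the high-fat diet at weeks 2 (log2 difference 1.14) and 10 (1.69). At week 4 it was lower (-0.63). The mean was 0.73 with a standard error of 0.38 (limma adjusted p = 0.993, higher at 2 of 3 weeks). Without week 4 it was 1.41. The summed signal of 15 macrophage and Kupffer cell markers was also higher with the high-fat diet at week 10, 29864 against 18867. It was lower at week 2, 23803 against 27065, and 37657 against 37767 at week 4. Between 14 and 15 of these markers were above the floor on each array, Adgre1 and Clec4f on all 6, and their part in the Junb values was not tested. In whole liver, a change in the number of a cell type and in RNA per cell cannot be told apart.

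Atf3, a stress-induced repressor of the ATF family, was near the floor. Its control arrays read 50.2 (below the floor), 180 and 205 in order of week, and its high-fat arrays 228, 225 and 209. At week 2 it was thus at least 1.47-fold higher with the high-fat diet, a log2 bound of 0.56 that is 2.19 with the floor at the 20th percentile. Over both array designs the high-fat arrays, at 209 to 228, did not overlap the control arrays, at 50.2 to 205, which was the case for 1 of 11 probe sets and 3.69% of all. The mean difference was 0.30 (standard error 0.22, limma adjusted p = 0.993, higher at 3 of 3 weeks), with the week 10 difference at 0.03.

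Myc was above the floor on 4 of 6 arrays. Its control arrays read 105, 302 and 216 in order of week, and its high-fat arrays 185, 515 and 142. The log2 difference of week 4 was 0.77, and at the other weeks 1 side was below the floor, namely 105 and 142. It was therefore at least 1.19-fold higher at week 2 and at least 1.39-fold lower at week 10. The mean was 0.18 (standard error 0.27, limma adjusted p = 0.996).

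Egr1, which links growth signals to transcription, had 2655, 1355 and 2190 on the control arrays in order of week, and 2547, 1775 and 592 on the high-fat arrays. The high-fat array of week 10 was the low one. Its log2 difference was -0.06, 0.39 and -1.89, the last a 3.70-fold lower value. The mean of -0.52 (standard error 0.38, limma adjusted p = 0.993) rested on that week, and was 0.16 without it.

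Nr4a1, which in liver also acts on glucose metabolism, had 646, 999 and 560 on control arrays and 1257, 385 and 739 on high-fat arrays, in order of week. The high-fat array was the higher of the pair at weeks 2 and 10, and the lower at week 4. The log2 differences of 0.96, -1.38 and 0.40 left a mean of -0.01 (standard error 0.39, limma unadjusted p = 0.988).

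Ier2 and Ier3 are small proteins of early induction, Ier3 being known for its role in cell survival. Ier2 had 1211, 882 and 1197 on control arrays, 1658, 904 and 967 on high-fat arrays, and the largest of its differences was 0.45. Ier3 had 245 and 240 at week 2 and 161 and 179 at week 10, and was below the floor on both arrays of week 4. Its week 4 difference was therefore set to 0, and was 0.69 without the floor. The mean differences were 0.06 (standard error 0.23) and 0.04 (standard error 0.21), with limma unadjusted p-values of 0.802 and 0.853.

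Dusp1 dephosphorylates JNK, p38 and ERK, and its transcription is raised by the same signals and by glucocorticoids. It had 5028, 6639 and 3777 on the control arrays in order of week, and 2411, 4274 and 2143 on the high-fat arrays. The high-fat array was the lower at every week, although over both array designs the diets overlapped, since the high-fat array of week 4 exceeded the control array of week 10. The differences of -1.06, -0.64 and -0.82 are 2.09-fold, 1.55-fold and 1.76-fold lower values. The mean was -0.84 with a standard deviation of 0.21 over the 3 weeks and a standard error of 0.22 (limma unadjusted p = 0.00360, adjusted p = 0.993). At least 1.5-fold lower at every week was true of 1 of 11 probe sets and 0.131% of all, and at least 1.5-fold higher of 0 and 0.179%. Over 13 alternatives the mean lay between -1.03 and -0.73, with adjusted p-values from 0.236 to 0.9999. By their median, the 12 hepatocyte markers were also lower with the high-fat diet, although Hnf4a, Serpina1c and Cps1 were not lower at week 2. The medians of the 12 were -0.16, -0.81 and -0.49 at weeks 2, 4 and 10, beside -0.03, 0.00 and 0.02 over 8846 genes. Their sums were 394989, 449559 and 649159 on the control arrays and 347458, 255462 and 463696 on the high-fat arrays. Of the 12, 5 had an unadjusted p under 0.05 with lower values (1.98% of genes) and 0 with higher ones (1.51%), and none passed the limma test. Under quantile normalization their medians were -0.04, -0.02 and -0.10, where the mean of Dusp1 was -0.79. That scaling gives every array the same set of values, which draws the brightest signals, such as that of Alb, together. The part of the markers in the Dusp1 values was not tested.

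Glucocorticoid-responsive genes were read beside Dusp1. All 12 of the list passed the filter, none passed the limma test (0.0113% of genes as higher and 0% as lower), and 5 had an unadjusted p under 0.05 with lower values, where 1.98% of genes did. With higher values none of the 12 did (1.51% of genes). The 5 lower ones included Sgk1, a kinase of salt handling, Tat, which degrades tyrosine, and Ddit4, an inhibitor of mTOR. Tat is also among the hepatocyte markers. Igfbp1 and Pck1, named after their values were seen, were the other two. Sgk1 had a mean of -0.96, with -0.57 and -1.32 at weeks 4 and 10. Tat had -0.59, -0.94 and -0.58 (mean -0.70) and Ddit4 -1.01, -2.39 and 0.26 (mean -1.04). The means of Igfbp1 and Pck1 were -0.68 and -0.66. Tat, Igfbp1 and Pck1 were bright, at 9799 or more on every array, and the hepatocyte markers, also bright, depended on the scaling. Medians of the present list were not taken under quantile normalization. The medians of the list were 0.01, -0.67 and -0.92 at weeks 2, 4 and 10, beside -0.03, 0.00 and 0.02 over 8846 genes. The list did not move as one. Mt1, a metallothionein, had 0.47, -1.07 and -1.92. Also named after their values were seen, Fkbp5 had 0.20, 0.50 and -0.12, and the receptor gene Nr3c1 had 0.00, 0.19 and 0.53.

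**Figure D3:**
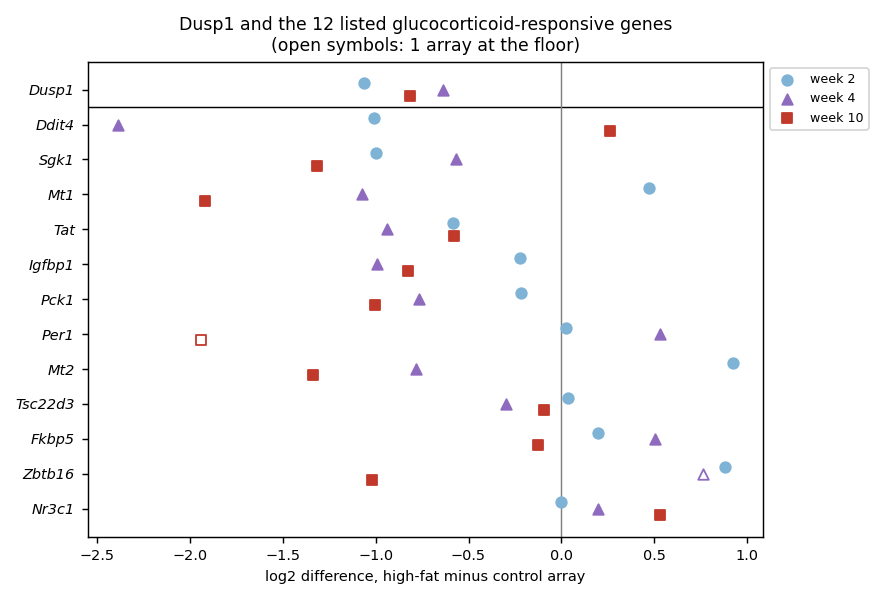
Log2 difference between the high-fat and the control array (x axis) at week 2 (circles), week 4 (triangles) and week 10 (squares) for Dusp1 (top row) and the 12 listed glucocorticoid-responsive genes, ordered by their mean. Sgk1 and Tat, like Dusp1, lay below 0 at each week, while Mt1 and Mt2 were above 0 at week 2 and below it at weeks 4 and 10.

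Clock genes are read beside these because several immediate early genes vary over the day. Of 17 listed, 13 passed the filter. None passed the limma test, and at an unadjusted p under 0.05 there were 5 higher (1.51% of genes) and 3 lower (1.98%). Dbp, an output factor, was below the floor on all control arrays and had a fitted mean difference of 2.36 with these set to the floor (limma adjusted p = 0.169). It passed in 4 of 13 alternatives. Its limma adjusted p was 7.5e-06 with the intensities as deposited, 0.0165 with probe sets averaged per gene, 0.00161 without week 2 and 0.00578 without week 10, and the highest of the 13 was 0.9999. Arntl, a core activator, had a mean of -1.32 (limma adjusted p = 0.993, from 0.0293 with the intensities as deposited to 0.9999 over 13 alternatives). In the fit of the intensities as deposited, Dbp, Arntl and members such as Junb all had the same standard error, 0.353. A gene's own spread therefore did not enter the p-values of that fit. Nr1d1 and Nfil3 had mean differences of 1.32 and -1.04. The hour of collection is not in the labels, and its part in the member values was not tested.

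The second question was how weeks 10 and 2 differed within each diet, on the same array design. Most members were lower at week 10. On the control diet 9 of 11 probe sets were lower and 2 higher (median -0.27, beside 0.01 over all probe sets). Among the 9, Ier2 (-0.02) and Junb (-0.07) were nearly level. On the high-fat diet 10 were lower and 1 higher (median -0.58, beside 0.08). Lower on both diets were 8 of 11, where 23.3% of all probe sets were, and 0 were higher on both (30.4%). With the intensities as deposited the count was 8 against 38.5% of all, and under quantile normalization 7 against 25.5%. At least 2-fold lower on both diets were 0 of 11 (0.399%). On the 4 arrays, 6 of 11 had a range of at least 2-fold, beside 24.2% of all. These comparisons share arrays with those of the diets. Of the 10 heat shock and tissue-handling genes, 3 were lower at an unadjusted p under 0.05 (2.97% of genes) and 0 higher (4.76%), with medians of -0.32 (control diet) and -0.33 (high-fat diet). Hspa1b, a heat shock protein named after its values were seen, had -0.79 and -2.22 (limma adjusted p = 0.232), and the others were Hsph1 and Ddit4. Of the 12 hepatocyte markers 5 were higher (4.76% of genes) and 1 lower (2.97%) at an unadjusted p under 0.05, with medians of 0.65 and 0.48. The medians of the markers were -0.05 and 0.48 with the intensities as deposited, and -0.06 and 0.09 under quantile normalization. None of these genes passed the limma test, and the part of either list in the member values was not tested.

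**Figure D4:**
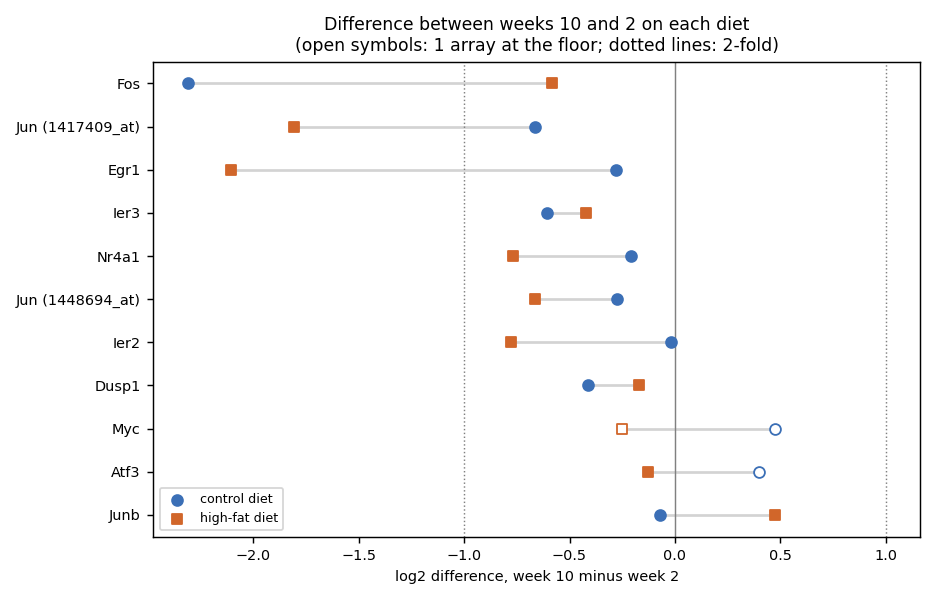
Log2 difference between weeks 10 and 2 (x axis) on the control diet (circles) and the high-fat diet (squares) for each probe set (rows, ordered by the mean of both). Fos, Jun and Egr1 had the lowest means, with Fos lowest on the control diet at -2.31 and Egr1 lowest on the high-fat diet at -2.11.

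At least 2-fold lower at week 10 were 1 of 11 on the control diet (2.59% of all) and 2 on the high-fat diet (5.44%). With values set to the floor, 0 were at least 2-fold higher on either (3.02% and 6.36%). At 1.5-fold in either direction the counts were 3 (22.6%) and 5 (34.9%). The 1 that was 2-fold lower on the control diet was Fos, from 1831 to 369 (4.96-fold lower). On the high-fat diet Fos went from 614 to 411. The other two were Egr1, from 2547 to 592 (4.30-fold lower), and Jun on its first probe set, from 1309 to 374 (3.50-fold). On the control diet these had log2 differences of -0.28 and -0.67. All 3 genes were lower on both diets, but the large step was that of Fos on one diet and of Egr1 and Jun on the other. Whether the steps differ between the diets was not tested, each resting on 1 array.

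Fitted over both diets, the mean was -1.45 for Fos (standard error 0.40, limma adjusted p = 0.278), -1.24 for Jun on its first probe set (0.37, adjusted p = 0.315) and -1.19 for Egr1 (0.41, adjusted p = 0.390). On the second Jun probe set it was -0.47 (0.34, adjusted p = 0.745). Fos, Egr1 and the first Jun probe set had a limma unadjusted p under 0.05 and were the only ones of 11 to do so. Of all probe sets, 3.72% did with lower values and 4.92% with higher ones. Over the 2 diets the differences had standard deviations of 1.22 (Fos), 1.29 (Egr1) and 0.81 (Jun). Those spreads entered the standard errors only in part. With 1 residual degree of freedom, the value estimated over all probe sets weighs heavily in these p-values. None passed at an adjusted p under 0.05, where 0.0275% of all passed with lower and 0.0482% with higher values. In 1 of 9 alternatives, with probe sets averaged per gene, Fos passed (limma adjusted p = 0.0372). Fos has 1 probe set, so averaging left its values and its mean of -1.45 unchanged. What differed was the fit, of 7949 genes, which gave it a standard error of 0.35. Over the 9 its adjusted p ran from 0.0372 to 0.904.

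Of the rest, Ier3 was 0.61 lower on the log2 scale on the control diet and 0.42 lower on the high-fat diet. Ier2 had -0.02 and -0.78, Nr4a1 -0.21 and -0.77, and Dusp1 -0.41 and -0.17. Junb went the other way on the high-fat diet, with -0.07 and 0.47. Atf3 and Myc had a side at the floor, with bounds of 0.40 and 0.48 on the control diet. With the floor at the 20th percentile these were 2.03 and 1.04, both at least 2-fold higher at week 10. Their high-fat values were -0.13 for Atf3 and, as a bound, -0.25 for Myc. Limma adjusted p-values of these 7 genes ran from 0.717 to 0.955.

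Other immediate early genes were then compared between the diets, by their brightest probe set. Of 23 further transcription factors 20 passed the filter and none passed the limma test. With an unadjusted p under 0.05 there were 2 lower (1.98% of genes) and 0 higher (1.51%). They were Fosl1, an AP-1 member partly at the floor (mean -0.61), and Klf2, a flow-responsive factor (-0.66, -0.21 and -1.02). Klf4 had a mean of -0.49 and Bcl3, a cofactor of NF-kappaB, -0.05, 0.25 and -1.85. The medians were 0.02, 0.02 and -0.57 at weeks 2, 4 and 10. At week 10, 3 of 20 were at least 2-fold lower (3.92% of genes) and 1 was higher (3.88%).

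Of 36 effectors and feedback inhibitors 31 passed the filter, and again none passed the test. At an unadjusted p under 0.05, 5 were lower (1.98% of genes) and 1 higher (1.51%). The higher one was Phlda1, with 1.16, 1.27 and 1.36 (limma adjusted p = 0.513), a gene of cell survival. The lower ones were Sgk1, Gadd45b, a stress sensor (-0.28, -0.59 and -1.53), Ccn2, a matrix protein (-0.75, -0.58 and -1.06), and Trib1 and Errfi1, both named after their values were seen, with means of -0.60 and -0.60. Errfi1 inhibits the EGF receptor. The medians were -0.10, 0.00 and -0.40, and at week 10 6 of 31 were at least 2-fold lower (3.92% of genes) and 1 higher (3.88%).

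Upstream receptors, kinases and factors were read next. Of 31 listed, 21 had a probe set and passed the filter, with medians of 0.00, 0.00 and 0.12 and none at an unadjusted p under 0.05. At week 10, 2 were at least 2-fold higher (3.88% of genes). These were Met, the receptor of hepatocyte growth factor, at the floor on 3 arrays (bound of 1.41), and Hbegf, a ligand of the EGF receptor, partly at the floor (1.01). Map2k1 and Rps6ka3, kinases of the ERK path, had means of -0.31 and 0.46. The 9 measured AP-1 and ATF partners had medians of -0.05, 0.02 and 0.08 and none at least 2-fold different at any week. Atf4, the effector of the integrated stress response, had a mean of -0.36, Jdp2 -0.41, Atf6 0.28 and Batf3 0.20.

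Among 17 measured partners and targets of Myc, none had an unadjusted p under 0.05. At week 10, 2 were at least 2-fold lower (3.92% of genes), Nop56 (-1.57) and Rrs1 (-2.46), both of ribosome assembly. Max, the obligate partner, had a mean of -0.45, partly at the floor, and Bop1 -0.34. Of 10 heat shock and tissue-handling genes, 1 was lower (1.98% of genes), Ddit4, and 1 higher (1.51%), Vegfa (mean 0.61), at an unadjusted p under 0.05. Hspb1 and Hsph1, heat shock proteins, had means of -0.46 and 0.35. Of 9 inflammatory signal genes none was, with Il1b at a mean of -0.35, Icam1 at 0.46, Saa2 at 0.27 and Saa3 at -0.32. The medians of these last lists were -0.03, 0.05 and -0.23 for heat shock and -0.29, 0.26 and 0.14 for inflammatory genes.

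Other cell types were followed by the summed signal of their markers. The 12 stellate cell and fibroblast markers, with 9 to 10 above the floor, summed to 16803 and 14074 on the control and high-fat arrays of week 2 and 10334 and 14683 at week 10. The 10 endothelial markers, with 7 to 8 above it, summed to 8113 and 6554, and 6247 and 9472. With the high-fat diet both sums, like that of macrophages, were lower at week 2 and higher at week 10. Bright markers weigh most in such sums, as Dcn did with 9278 on the control array of week 2. The median log2 differences of weeks 2 and 10 were -0.11 and 0.25 (stellate), -0.40 and 0.43 (endothelial) and -0.20 and 0.65 (macrophage). Single markers went the other way, such as Reln, Col3a1, Kdr and Eng at week 2 and Col1a1, Tek and Laptm5 at week 10. At week 4 the endothelial sum was 9231 on the control and 8029 with the high-fat diet, and the stellate sum 18850 and 19434. Lymphocyte markers ranged from 1777 to 3295 over the arrays (3 to 6 of 9 above the floor), neutrophil markers from 993 to 1985 (2 to 5 of 6), erythroid markers from 649 to 1721 (2 to 4 of 4) and cholangiocyte markers from 351 to 628 (0 to 2 of 5). Their part in the member values was not tested.

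The genes most like the members were sought by Pearson's r over the 6 arrays with the mean profile of the 10 genes. That profile was highest on the high-fat array of week 2 (0.34 above its mean on the log2 scale) and lowest on the high-fat array of week 10 (-0.33). Of 6044 genes above the floor on all arrays, Kdelr1 (r = 0.988), Rexo2 (0.982), Dlst (0.980), Polrmt (0.978) and Slc25a15 (0.974) were nearest. The 6 points share diets, weeks and array designs, so these values describe the arrays only.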

How the data were processed

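Per the labels, total RNA of snap-frozen liver was turned into biotin-labelled cRNA for Affymetrix arrays. What the authors deposited is an intensity for each probe set, on a linear scale. The software that summarized the probes was not given in the sources used here. Trimmed by 2% at each end, the deposited array means ran from 500.004 to 500.234, with the control array of week 2 at 800.3.

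From these, log2 values were centred per array on the median of 9922 probe sets above a first floor on all arrays, and floored at the 40th percentile. Leaving out 64 control probe sets left 22626. Of these 20380 had 1 gene symbol, 691 several and 1555 none here, and 20351 were matched to a current symbol through the gene identifier. The 14533 above the floor on at least 3 arrays were fitted with limma 3.58.1 (lmFit, eBayes; R 4.3.3), high-fat against control with week as a block, and week 10 against week 2 with diet as a block (4 arrays, 1 residual degree of freedom). Adjusted p-values are Benjamini-Hochberg over all 14533, called under 0.05. Lists used the brightest probe set of a gene (8846 genes), with p-values from the same fit.

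The members and lists were chosen with earlier results of these data known. All members are named, with up to 4 genes per list with the largest mean diet difference. Others are said to be named after their values were seen. Alternatives were the scaling, floor, filter, probe set rule, block, eBayes settings, leaving out weeks, and a loess on brightness within each week, added after the data were seen. The fits were tested on simulated data. Of simulated log2 changes of 1, 59.7% were recovered between the diets and 19.4% between weeks 10 and 2. Of log2 changes of 2, 100% and 98.5% were. False calls numbered 16 and 11 in fits of 14533 probe sets. The simulated noise was normal and used variances that limma had already pooled, so recovery in the real arrays can be lower. Dbp, for example, had a fitted mean of 2.36 and was not called (limma adjusted p = 0.169). A 2-fold change, and a larger one, can thus be missed. Nothing says that arrays came from separate animals, so p-values measure only the spread between these arrays, partly pooled over probe sets. The number of arrays limits the precision. Figures used matplotlib 3.10.9.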

Additional observations from a re-analysis of the deposited data

Results flagged for a closer look

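For Junb and Nr4a1 the diet difference had opposite directions in separate weeks, each by at least 1.5-fold and with all arrays above the floor. Junb was higher with the high-fat diet at week 2 (log2 difference 1.14) and week 10 (1.69), but lower at week 4 (-0.63). Nr4a1 was higher at week 2 (0.96) and lower at week 4 (-1.38). The difference between the weeks was not tested, since each value rests on 1 array per diet, and week 4 was measured on another array design.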

How the results depend on the processing

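No member passed the limma test between the diets under any alternative, and the mean difference of Dusp1 kept its direction in all 13. The number of all probe sets called between the diets was 2. It was 10 with the intensities as deposited, 1 with the brightest probe set per gene and with trended, robust eBayes settings, and 0 with quantile normalization, the 20th or 60th percentile floor, no filter, no week block or the loess. Leaving out a week gave 0 to 9. With the intensities as deposited, Dbp, Arntl and Junb had the same standard error, 0.353, so the 10 calls there do not use each gene's own spread. Between weeks 10 and 2, 11 were called. The count was 7 with quantile normalization, 28 with the brightest probe set, 47 with probe sets averaged per gene, 44 with the trended, robust settings, and 0 with either other floor, no filter or no diet block. Of the members 1, Fos, was called in the fit with probe sets averaged per gene, which leaves its own values unchanged, and 0 otherwise. Counts of members at least 2-fold different went from 1 to 4 at week 4 when 1.5-fold was used. On the control diet over time they went from 1 to 3 with the intensities as deposited, the 20th percentile floor or 1.5-fold, and on the high-fat diet from 2 to 5 with 1.5-fold. Those that entered on the control diet with the 20th percentile floor were Atf3 and Myc, both higher at week 10. With the intensities as deposited the median of all probe sets moved to -0.67 in the week 2 diet difference and to -0.64 in the control diet's change over time. Mean diet differences of Ier2 (-0.13), Ier3 (-0.16) and Batf3 (-0.000193) turned there, as did the week differences of Junb (-0.15) and Atf3 (-0.067). Quantile normalization turned the diet difference of Nr4a1 (0.091) and the week difference of Atf3 (-0.13), the 20th percentile floor the diet difference of Batf3 (-0.072) and the 60th that of Met (-0.049). Averaging probe sets per gene turned that of Fkbp5 (-0.013). Leaving out 1 week at a time turned the mean diet difference of 12 genes once each. Without week 2 these were Fos (range over the 3 weeks left out -0.80 to 0.061) and Ier2 (-0.14 to 0.24). Without week 4 they were Nr4a1 (-0.49 to 0.68), Myc (-0.11 to 0.51) and Hsph1 (-0.019 to 0.64). Without week 10 they were Egr1 (-0.97 to 0.16), Ier3 (-0.016 to 0.077), Batf3 (-0.12 to 0.39), Rrs1 (-1.22 to 0.40), Saa2 (-0.022 to 0.61), Bcl3 (-0.95 to 0.10) and Met (-0.19 to 0.71). Fewer weeks or genes enter some of these fits by construction; otherwise the cause was not tested. Within each diet the replicate numbers coincide with the weeks, so the week block pairs the arrays of one week; without it 0 probe sets and 0 members were called. Atf3, Myc and Ier3 are limited by their signal over background.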
